A study of Mus musculus with 4 samples.

Results

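Notch signalling was examined in the mesenchymal stromal cells of the mouse intestine through 8 of its genes: the receptors Notch1, Notch2 and Notch3, the ligands Jag1 and Dll4, and the target genes Hes1, Hey1 and Heyl. The genes were chosen by name, and these 8 were taken from the 28692 gene rows of the single cell RNA-seq matrices. Cells came from the lamina propria of untreated female C57BL6/Nrj mice aged 8 to 10 weeks, with small intestine and colon each sampled in 2 experiments of 3 pooled mice, so that every intestine had 2 libraries (replicates 1 and 2). The muscularis externa was stripped away, and live cells that lacked CD45, Ter119, CD31, BP3, EpCAM and L1CAM and carried Itgb1 were sorted before capture on the 10x Genomics platform. No group carried a transgene or received an agent, so the design compares cell classes within a library and the 2 intestines with each other.

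In the Notch pathway a ligand on the surface of one cell binds a receptor on its neighbour. The receptor is then cut by ADAM proteases and gamma-secretase, and its intracellular part joins the DNA-binding protein RBPJ to switch on transcriptional repressors of the HES and HEY families. Signals from endothelial ligands such as JAG1 and DLL4 to NOTCH3 on pericytes and vascular smooth muscle are a textbook example of how the cells of a vessel wall are specified, and NOTCH1 and DLL4 shape the endothelium itself during sprouting.

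Cell classes were set by counting, in each cell, how many genes of a marker list had at least 1 UMI (unique molecular identifier, a tag that counts 1 captured transcript). A pericyte had at least 4 of 9 pericyte markers such as Rgs5, Kcnj8 and Abcc9, a smooth muscle cell (SMC) at least 7 of 10 muscle markers such as Actg2, Des and Myh11, an endothelial cell at least 4 of 13 markers such as Cdh5, Kdr and Plvap, and a fibroblast (FB) at least 5 of 8 markers such as Pdgfra, Dcn and Col1a1. The first 3 classes also had no Pdgfra UMI, and no Notch pathway gene was a marker. The gates of pericytes, SMC and endothelium excluded each other, and a fibroblast met none of them. Cells that met both the pericyte and the SMC gate were set apart. In the order small intestine replicate 1, small intestine replicate 2, colon replicate 1 and colon replicate 2, the gates held 48, 24, 61 and 51 pericytes, 41, 82, 214 and 671 SMC, 351, 1, 230 and 16 endothelial cells, and 1155, 13904, 1741 and 10950 fibroblasts. The single endothelial cell of small intestine replicate 2 was left out, so that endothelial values rest on 3 libraries, and the presence of this class in a sort against CD31 is itself a limit on how well it stands for intestinal endothelium. Many cells lay just outside the pericyte gate: in small intestine replicate 2, 222 cells were 1 marker short of the gate and 43 were just on it, before the other criteria, against 75 and 41 in small intestine replicate 1.

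The libraries held 14341443 to 52269372 UMIs. The 2 replicates of an intestine differed in kind: replicate 1 libraries had 1808 and 2386 usable cells with median depths of 6949.5 and 8810 UMIs, replicate 2 libraries had 14350 and 12153 cells with medians of 2734.5 and 3881 UMIs, and a 3′ or a 5′ kit was used for each without the labels saying which. Libraries with the same replicate number shared 8 and 69 cell barcodes, and the other pairs shared 0 to 2. Levels below are CPM, the UMIs of a gene per 1000000 UMIs of all cells of a class in a library. They are compared between classes and not between genes, because the share of transcripts captured per gene was not known.

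The receptor Notch3 and the target gene Heyl were highest in pericytes. Dll4, Notch1 and Hey1 had their highest levels in endothelium and were also above fibroblasts in pericytes. Among these 4 classes Jag1 had its highest levels in pericytes, although its differences from SMC and endothelium were not called, Hes1 was abundant in every class, and Notch2 was low in every class. Of the 8 genes, 6 were higher in pericytes than in fibroblasts and none was lower, whereas 12.2% of 10780 genes tested differed between these classes and 5.47% were higher in pericytes. A gene was called different when its adjusted p was under 0.05 and its log2 fold change exceeded 1.5 in either direction, by edgeR's quasi-likelihood test on class sums with library as a block. The median log2 fold change of the 8 genes was 3.21, against -0.12 over all genes tested.

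**Figure D1:**
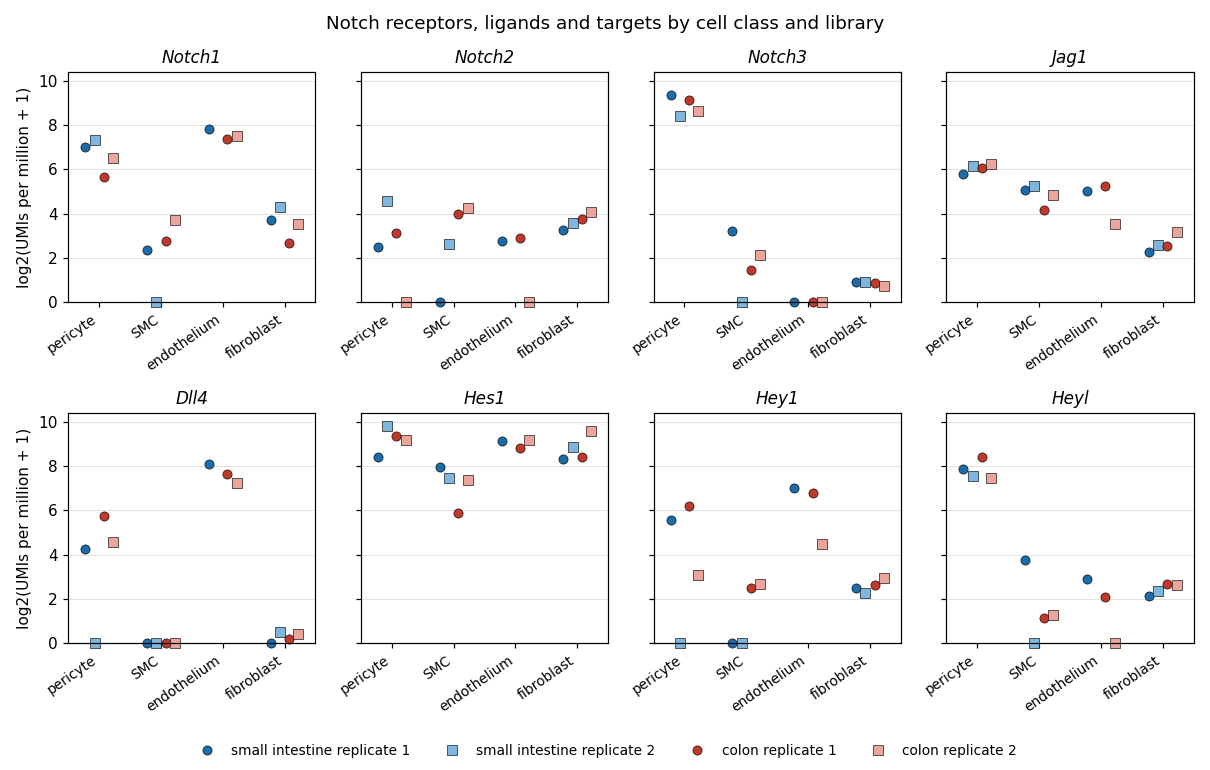
Level of each of the 8 Notch genes, as log2(CPM + 1), in pericytes, smooth muscle cells (SMC), endothelium and fibroblasts; each point is the sum over all cells of a class in a library, with small intestine in blue, colon in red, circles for replicate 1 and squares for replicate 2, and no endothelial point for small intestine replicate 2. Notch3 and Heyl stand high in pericytes of all 4 libraries, Dll4 and Notch1 are highest in endothelium, and Hes1 is high throughout.

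Notch3 lies at chr17:32120820-32166852 on the minus strand of GRCm38 (mm10), where an annotated antisense gene overlaps it on the other strand. It reached 656 CPM in pericytes of small intestine replicate 1, 346 CPM in small intestine replicate 2, 555 CPM in colon replicate 1 and 400 CPM in colon replicate 2. The same libraries gave 0.867, 0.891, 0.785 and 0.633 CPM in fibroblasts, and the ranges did not overlap. The log2 fold change of pericytes over fibroblasts was 8.96 ± 0.30 (SE, adjusted p = 7.3e-16). A Notch3 UMI was found in 89.6%, 54.2%, 90.2% and 52.9% of pericytes in the same library order, where the median pericyte had 4586.5, 1308.5, 5988 and 2072 UMIs. In fibroblasts, with 8348, 2762, 9458 and 3988.5 UMIs in the median cell, the share was 0.519%, 0.237%, 0.689% and 0.256%. After every cell was thinned to 1000 UMIs the pericyte shares were 50%, 33.3%, 42.6% and 29.4%, and none of the 4 fibroblast shares was above 0.115%.

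No Notch3 UMI was found in the endothelial cells of any library. With 0 of 351 cells in small intestine replicate 1, a floor of 3 counts allows a share of cells with a Notch3 UMI of up to 0.855%, and with 0 of 230 cells in colon replicate 1 of up to 1.30%. These limits do not speak of cells that express the gene below detection. With pericytes summed over 4 libraries and endothelium over 3, Notch3 was at least 521-fold higher in pericytes than in endothelium, taking 3 UMIs over the endothelial class as its floor. In SMC the level was 8.23, 0, 1.73 and 3.35 CPM, from 2, 0, 3 and 7 UMIs. SMC were below pericytes in 4 of 4 libraries, with a log2 fold change of pericytes over SMC of 7.23 ± 0.35 (SE, adjusted p = 2.5e-12). Cells that met both the pericyte and the SMC gate were left out of both classes. They had 619 CPM of Notch3 in small intestine replicate 1 and 384 CPM in colon replicate 1, so the SMC level holds only for SMC without the pericyte gate. Against fibroblasts SMC were higher by 1.73 ± 0.53 on the log2 scale (SE, adjusted p = 0.0184), a call that rests on 12 UMIs and was lost in 5 of 14 alternative settings. Pericyte-marker UMIs were also present in SMC, at 472 to 1370 CPM summed over the list against 6058 to 11735 CPM in pericytes, and their part in the Notch3 level of SMC was not tested.

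Notch1 is the receptor through which endothelial cells read DLL4 (chr2:26457903-26516663, minus strand, overlapping 3 other annotated genes). Its level in endothelium was 228 CPM in small intestine replicate 1, 167 CPM in colon replicate 1 and 182 CPM in colon replicate 2. Pericytes followed with 128, 161, 49.3 and 90.5 CPM in the 4 libraries, and fibroblasts had 12.1, 18.7, 5.37 and 10.5 CPM. These 3 ranges did not overlap. Notch1 was higher than in fibroblasts both in endothelium (log2 fold change 4.29 ± 0.27, SE, adjusted p = 3.2e-12) and in pericytes (2.99 ± 0.31, SE, adjusted p = 9.2e-08). Endothelium and pericytes differed by -1.30 ± 0.30 on the log2 scale (SE, adjusted p = 0.00151, pericytes lower), which missed the size required for a call. SMC, with 0 to 12 CPM, were not called against fibroblasts (log2 fold change -0.29 ± 0.34, SE, adjusted p = 0.598).

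Notch2, a receptor of many cell types (chr3:98013527-98150361, plus strand, overlapping 2 annotated genes on the same strand), was at low levels in every class. Fibroblasts had 8.56, 10.9, 12.3 and 15.6 CPM, SMC 0 to 18.2 CPM, pericytes 0 to 23 CPM from 5 UMIs in all, and endothelium 0 to 6.49 CPM. No comparison between pericytes, SMC, endothelium and fibroblasts called it. The log2 fold change of pericytes over fibroblasts was -1.05 ± 0.67 (SE, adjusted p = 0.302).

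Dll4, the ligand of endothelial tip cells (chr2:119325784-119335962, plus strand, with 1 annotated gene on the other strand), was an endothelial transcript. Endothelium had 272 CPM in small intestine replicate 1, 200 CPM in colon replicate 1 and 150 CPM in colon replicate 2. Fibroblasts had between 0 and 0.408 CPM, and no Dll4 UMI was found in SMC of any library. The log2 fold change of endothelium over fibroblasts was 9.37 ± 0.59 (SE, adjusted p = 4.9e-07).

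Pericytes also held Dll4, at 18.2, 0, 51.9 and 22.6 CPM from 4, 0, 20 and 3 UMIs. They were above fibroblasts in 3 of 4 libraries (log2 fold change 6.60 ± 0.85, SE, adjusted p = 0.000319) and below endothelium in 3 of 3 (-2.77 ± 0.52, SE, adjusted p = 0.00305). Against SMC they were at least 49.0-fold higher with a floor of 3 UMIs over the SMC class (adjusted p = 0.00275). Endothelial markers summed over the list of 13 genes were present in pericytes at 109, 115, 187 and 241 CPM, which was 0.861%, 1.02% and 2.76% of the endothelial level in small intestine replicate 1, colon replicate 1 and colon replicate 2. Pecam1, Cdh5, Kdr, Cldn5 and Ptprb were at 0 in pericytes of all 4 libraries, and 3 to 7 of the 13 markers were detected. Dll4 itself stood at 6.70%, 25.9% and 15.1% of the endothelial level in those 3 libraries, so that its ratio to endothelium was higher than that of the marker list in each. Other endothelial genes of the pathway varied in this ratio: Notch4 stood at 13.5%, 13.2% and 0% in the same libraries, and Jag2 and Dtx1 had no UMI in pericytes. Cells that met the endothelial gate were left out of the pericytes, which limited the marker ratio, whereas no Notch gene entered a gate. The part of endothelial transcripts in the Dll4 level of pericytes was not tested.

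**Figure D2:**
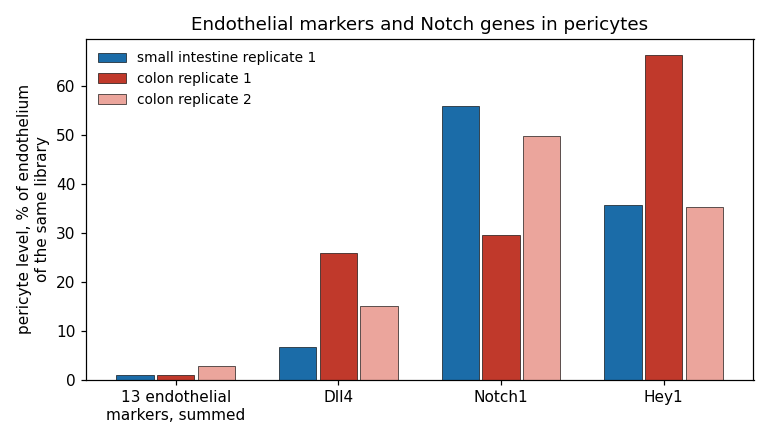
Level in pericytes as a percent of the level in endothelium of the same library, for the sum of 13 endothelial markers and for Dll4, Notch1 and Hey1, with 1 bar for each of the 3 libraries that hold both classes. The marker sum lies between 0.861% and 2.76%, and every Notch1 bar and every Dll4 bar lies above it, as do those of Hey1, from 6.70% for Dll4 in small intestine replicate 1 to 66.4% for Hey1 in colon replicate 1. Cells that met the endothelial gate were left out of the pericytes, which limits the marker sum.

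Jag1, the other ligand (chr2:137081456-137116644, minus strand), had its highest level in pericytes, with 54.7, 69.1, 64.9 and 75.4 CPM. SMC had 32.9, 36.5, 16.8 and 27.3 CPM, and endothelium had 31.2, 37.3 and 10.7 CPM in the libraries that held it, the last from 1 UMI. Neither of these classes was second in every library. Fibroblasts had 3.79, 4.99, 4.83 and 8.05 CPM, below each of the other classes in every library, though 1 UMI in 16 endothelial cells cannot place colon replicate 2. All 3 classes passed the call against fibroblasts, with log2 fold changes of 3.44 ± 0.34 in pericytes (SE, adjusted p = 3.7e-08), 2.01 ± 0.28 in SMC (SE, adjusted p = 4.7e-06) and 2.62 ± 0.30 in endothelium (SE, adjusted p = 1.2e-07). With the replicate 2 libraries alone, where endothelium came from colon replicate 2 only, the endothelial value was 0.48. Pericytes and SMC differed by 1.43 ± 0.35 (SE, adjusted p = 0.00361), just short of the size required, and the difference of pericytes from endothelium, 0.82 ± 0.35, missed the threshold (SE, adjusted p = 0.0895).

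Notch3 was high in pericytes with no UMI in endothelium, and Dll4 was highest in endothelium, so the 250 bases before their RefSeq starts are shown (RefSeq, GRCm38.p6), written 5′ to 3′ on the strand of the gene. Capitals mark GGAA or its reverse complement TTCC, the core that ETS factors such as ERG bind.
Notch3, chr17:32166891-32167140, minus strand: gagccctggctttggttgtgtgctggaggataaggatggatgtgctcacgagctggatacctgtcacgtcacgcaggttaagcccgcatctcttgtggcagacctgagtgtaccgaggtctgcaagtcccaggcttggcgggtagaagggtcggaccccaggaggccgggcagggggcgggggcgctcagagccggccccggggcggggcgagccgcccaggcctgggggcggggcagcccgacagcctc
Dll4, chr2:119325534-119325783, plus strand: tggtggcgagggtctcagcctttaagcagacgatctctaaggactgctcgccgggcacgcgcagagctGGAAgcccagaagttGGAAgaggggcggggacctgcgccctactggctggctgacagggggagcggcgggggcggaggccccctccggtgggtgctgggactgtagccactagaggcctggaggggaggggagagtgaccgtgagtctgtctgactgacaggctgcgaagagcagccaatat
The Dll4 sequence holds 2 GGAA matches and the Notch3 sequence none, where 93.4% of 32851 mouse promoter windows of this length hold at least 1 match on either strand. The RBPJ core TGGGAA was searched on both strands, its letters overlapping GGAA, and was not found in the windows of Notch3, Dll4, Notch1, Notch2 or Jag1, while 21.6% of all windows hold it. The GC box GGGCGG was present 4 times in the Notch3 window and 2 times in the Dll4 window, with at least 1 match in 32.7% of all windows. These matches describe the letters of the windows and no binding.

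Heyl encodes a repressor of the HEY family induced by Notch in mural cells (chr4:123233556-123249875, plus strand). It was measured in pericytes at 232 CPM in small intestine replicate 1, 184 CPM in small intestine replicate 2, 337 CPM in colon replicate 1 and 174 CPM in colon replicate 2. Fibroblasts had 3.36 to 5.25 CPM, endothelium 0 to 6.49 CPM and SMC 12.3, 0, 1.16 and 1.44 CPM, so pericytes stood apart from these classes in every library. Cells that met both the pericyte and the SMC gate, left out of both classes, had 110 CPM in small intestine replicate 1 and 137 CPM in colon replicate 1. The log2 fold change of pericytes was 5.49 ± 0.31 over fibroblasts (SE, adjusted p = 5.2e-12), 5.65 ± 0.44 over endothelium (SE, adjusted p = 1.1e-09) and 6.90 ± 0.46 over SMC (SE, adjusted p = 1.8e-10). A Heyl UMI was found in 54.2%, 25%, 80.3% and 43.1% of pericytes and in 2.16%, 1.09%, 4.02% and 1.92% of fibroblasts.

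Hey1, a relative of Heyl that is best known from arterial endothelium (chr3:8663359-8667256, minus strand), divided the classes differently. Endothelium had 127, 109 and 21.4 CPM in small intestine replicate 1, colon replicate 1 and colon replicate 2, the last from 2 UMIs. Pericytes had 45.6, 0, 72.7 and 7.54 CPM, with the replicate 1 libraries high and the replicate 2 libraries at 0 and 1 UMI. Fibroblasts had 4.66, 3.85, 5.07 and 6.72 CPM. Hey1 was higher than in fibroblasts in endothelium (log2 fold change 4.02 ± 0.45, SE, adjusted p = 5.4e-06) and in pericytes (2.84 ± 0.58, SE, adjusted p = 0.00263). The pericyte difference rested on colon replicate 1, without which it was 1.90 on the log2 scale with an adjusted p of 0.151. The difference of pericytes from endothelium in Hey1 missed the threshold (-1.18 ± 0.51, SE, adjusted p = 0.115).

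Hes1, a repressor that many signals besides Notch induce (chr16:30064384-30067796, plus strand), was abundant in all classes. Pericytes had 337, 898, 657 and 573 CPM, endothelium 555, 457 and 577 CPM in the libraries that held it, and fibroblasts 317, 468, 339 and 776 CPM, with ranges that overlapped. Neither pericytes (log2 fold change 0.18 ± 0.37, SE, adjusted p = 0.805) nor endothelium (0.14 ± 0.40, SE, adjusted p = 0.827) passed the test against fibroblasts. SMC were lower, with 251, 177, 57.8 and 166 CPM, and lay below the fibroblasts of their library in 4 of 4 cases (-1.75 ± 0.38, SE, adjusted p = 0.00531). With the replicate 1 libraries alone, Hes1 in SMC was at -1.46 against fibroblasts and was not called (adjusted p = 0.263). The immediate early genes that tissue dissociation is known to induce, 20 genes from Fos to Myc, were summed beside it: they stood at 25178 to 38947 CPM in SMC, 31595 to 59129 CPM in fibroblasts, 36243 to 53193 CPM in endothelium and 42224 to 82727 CPM in pericytes. In SMC they were below the fibroblasts of the same library in 3 of 4 cases, and the part of dissociation in the Hes1 and Jag1 levels was not tested.

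**Figure D3:**
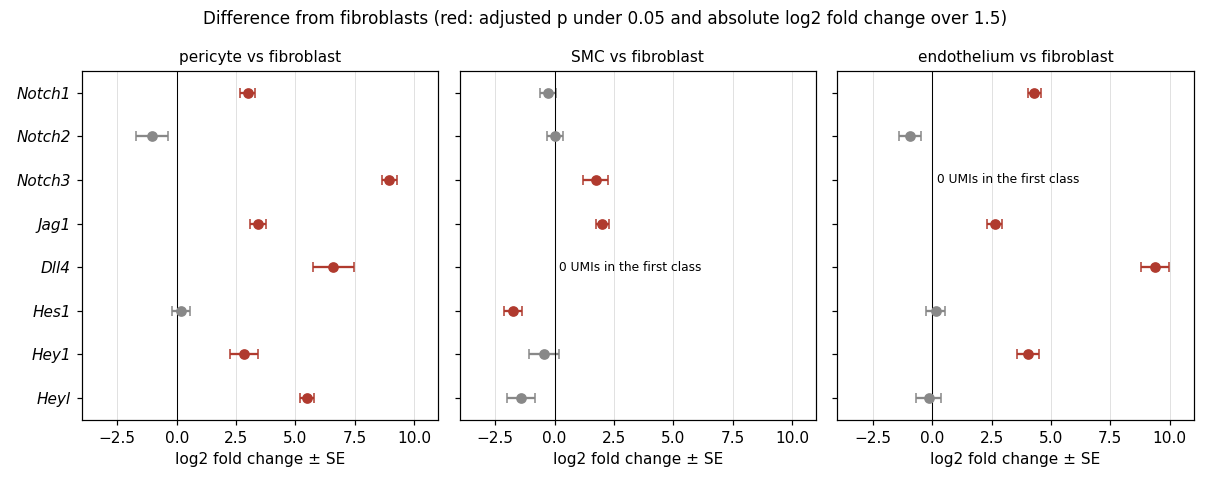
Log2 fold change with its standard error for each Notch gene in pericytes, SMC and endothelium against fibroblasts, with called differences in red and others in grey; genes with 0 UMIs in the first class have no fold change. In pericytes 6 genes are red and all lie to the right, led by Notch3 at 8.96, while endothelium is led by Dll4 at 9.37.

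Counted by class, SMC differed from fibroblasts in 3 of 8 genes, with Notch3 and Jag1 higher and Hes1 lower, against 10.6% of all genes tested (3.97% higher and 6.59% lower), and the median log2 fold change was -0.36 against -0.03 over all genes. Endothelium was higher in 4 of 8, which were Notch1, Jag1, Dll4 and Hey1, against 21.5% called in either direction and 8.66% called higher, with medians of 1.38 and -0.03. Pericytes differed from endothelium in 3 of 8, with Notch3 and Heyl higher and Dll4 lower, against 18.1% of all genes (9.72% higher and 8.36% lower), and the medians were -0.03 and -0.06. Pericytes exceeded SMC in 6 of 8 (Notch1, Notch3, Dll4, Hes1, Hey1 and Heyl) against 12.4% called and 7.12% called higher, with medians of 3.27 and -0.12. Fibroblast transcripts were found in the mural classes: the 8 fibroblast markers summed to 6.78%, 35%, 12.4% and 31.6% of the fibroblast level in pericytes and to 27.6% to 35.2% in SMC. Bulk sums cannot tell fewer expressing cells from less RNA in each cell.

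The libraries numbered 1 and those numbered 2 were also fitted apart, since they differ in depth and cell number. Pericytes against fibroblasts called 6 genes in the replicate 1 libraries and 5 in the replicate 2 libraries. Pericytes against SMC called 6 and 5. In the replicate 1 libraries pericytes against endothelium called 3 and endothelium against fibroblasts called 4. In the replicate 2 libraries endothelium was 16 cells of colon replicate 2 alone, so counts of calls are not given for it. SMC against fibroblasts called 1 and 2.

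Of 39 other genes of the pathway, 31 were tested between classes. Against fibroblasts, 6 were called in pericytes (5 higher, 1 lower), 4 in SMC (2 higher, 2 lower) and 8 in endothelium (6 higher, 2 lower), with medians of -0.22, -0.13 and -0.05 on the log2 scale. The shares of all genes called in these comparisons were 12.2%, 10.6% and 21.5%. Between pericytes and endothelium 10 of the 31 were called, 3 higher in pericytes and 7 lower, where 18.1% of all genes were called. Nrarp, which encodes an ankyrin-repeat protein that is a direct Notch target and dampens the signal, had 264, 0, 249 and 158 CPM in pericytes, 87.0, 76.2 and 139 CPM in endothelium and 0.127 to 0.650 CPM in fibroblasts. It was high in pericytes of 3 libraries and listed at 0 in small intestine replicate 2, where the class holds 24 cells. Its log2 fold change over fibroblasts was 8.74 ± 0.36 in pericytes (SE, adjusted p = 6.1e-15) and 7.40 ± 0.37 in endothelium (SE, adjusted p = 3.1e-14). Hey2, a further HEY repressor, had 18.2, 0, 54.5 and 22.6 CPM in pericytes from 4, 0, 21 and 3 UMIs, and was higher than in fibroblasts there (6.06 ± 0.85, SE, adjusted p = 2.98e-05) as in endothelium (5.13 ± 0.78, SE, adjusted p = 2.49e-05). Maml3, a co-activator of the RBPJ complex, was higher in pericytes by 1.86 ± 0.27 (SE, adjusted p = 1.2e-05), with 91.2, 138, 54.5 and 106 CPM against 14.2 to 31.4 CPM in fibroblasts.

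Nrarp, Hey2 and Notch4 were called higher than in fibroblasts in both pericytes and endothelium, while other genes were at 0 in pericytes. Jag2, a further ligand, had 24.0, 19.5 and 42.7 CPM in endothelium and was at 0 in pericytes and SMC of all libraries, and it was at least 5.90-fold lower in pericytes than in endothelium. Dtx1, a ubiquitin ligase that acts on Notch, had 108, 77.0 and 42.7 CPM in endothelium and 0 UMIs in pericytes, at least 24.1-fold lower there. Notch4, the receptor typical of endothelium, had 67.5, 59.2 and 21.4 CPM in endothelium and was higher than in fibroblasts by 5.71 ± 0.37 (SE, adjusted p = 5.9e-12). In pericytes it was higher than in fibroblasts by 2.51 ± 0.85 (SE, adjusted p = 0.0341), at 0 to 9.12 CPM. Pericytes were above fibroblasts in 2 of 4 libraries, and the ranges overlapped. The Notch4 call in pericytes was lost without small intestine replicate 1 (2.10, adjusted p = 0.252) and without the low-count filter (2.37, adjusted p = 0.0573). Dtx4, a relative of Dtx1, went the other way: it had 0.649, 0.811 and 0 CPM in endothelium against 21.9 to 67.3 CPM in fibroblasts (-6.05 ± 0.68, SE, adjusted p = 2.3e-07). In pericytes Dtx4 was at 36.5, 0, 62.3 and 37.7 CPM. Rbpj itself was present in every class, at 37.7 to 69.1 CPM in pericytes and 34.5 to 67.6 CPM in fibroblasts.

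**Figure D4:**
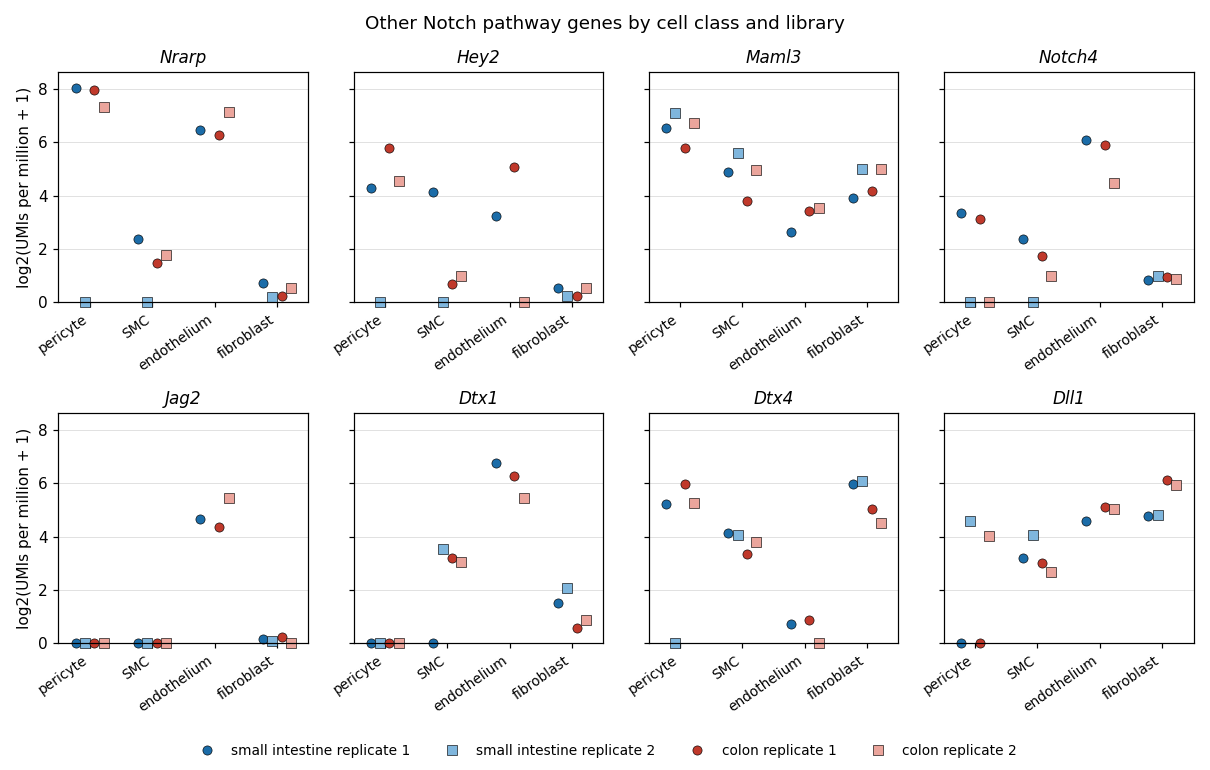
Level of 8 other Notch pathway genes, as log2(CPM + 1), by cell class and library, with colours and shapes as in the plot of the 8 genes by class. Nrarp is high in pericytes of 3 libraries and in endothelium, Jag2 and Dtx1 are highest in endothelium, and Dll1 is highest in fibroblasts and endothelium.

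Endothelial cells were split by whether they had a UMI of Prox1, which encodes the transcription factor of lymphatic identity. In small intestine replicate 1 the 83 cells with Prox1 had 7.05 CPM of Jag1 against 40.4 CPM in the 268 without, and in colon replicate 1 the 50 cells with Prox1 had 3.91 CPM against 46.0 CPM in 180. Notch4 behaved likewise, with 18.8 against 86.1 CPM and 7.81 against 72.6 CPM. Dll4 was at 143 against 321 CPM in the small intestine but at 180 against 206 CPM in the colon. Notch1 was at 249 against 220 CPM and 266 against 141 CPM. Notch2 was at 16.4 against 1.79 CPM and 19.5 against 3.07 CPM, and Heyl at 18.8 against 1.79 CPM and 7.81 against 2.05 CPM, from at most 8 UMIs in any of these groups. Hes1 was at 517 against 570 CPM in the small intestine and at 97.6 against 551 CPM in the colon. Hey1 was at 134 against 125 CPM and at 66.4 against 121 CPM. Jag1, Notch4, Dll4 and Hes1 were thus lower in the Prox1 cells of both libraries, and Notch1, Notch2 and Heyl higher, and no test of this split was made.

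Among fibroblasts, the subepithelial PDGFRahi FB were set off by at least 5 of 8 markers such as F3, Bmp3 and Foxl1, and the other FB by at most 2 of them. The gates held 114, 438, 573 and 1752 PDGFRahi FB and 941, 12608, 752 and 7447 other FB in the same library order. Of the 8 Notch genes 6 were tested, and 2 were called, both lower in PDGFRahi FB, where 8.25% of 11851 genes were called and 5.17% were lower. The median log2 fold change of the 6 was -0.98, against -0.0049 over all genes tested. Hey1 had 0.956, 0.858, 1.68 and 2.95 CPM in PDGFRahi FB and 4.97, 4.06, 5.83 and 7.99 CPM in other FB (-1.84 ± 0.27, SE, adjusted p = 0.00277). Heyl had 0.956, 2.57, 1.99 and 1.96 CPM against 3.59, 4.17, 9.36 and 6.46 CPM (-1.95 ± 0.29, SE, adjusted p = 0.00292). The ranges of both genes were apart, at low levels. Notch3 and Dll4, at 0 UMIs in PDGFRahi FB of all libraries, had too few UMIs to be tested. Hes1, at 282 to 626 CPM in PDGFRahi FB and 311 to 827 CPM in other FB, overlapped. CD81+ FB, a set within the other FB that had at least 4 of 6 markers such as Cd81 and Ackr4, had 322, 527, 375 and 996 CPM of Hes1, 8.70, 3.21, 2.35 and 7.25 CPM of Hey1 and 4.54, 3.37, 4.70 and 5.59 CPM of Heyl. Fitted apart, the replicate 1 libraries called 1 of these genes and the replicate 2 libraries called 0.

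Dner, a Notch ligand of neurons, was the other pathway gene called between the fibroblast sets. It had 6.48, 8.43, 13.6 and 16.4 CPM in other FB and at most 0.859 CPM in PDGFRahi FB (-5.03 ± 0.50, SE, adjusted p = 0.000527).

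Small intestine and colon were then compared within each class. None of the tested Notch genes was called in any class: 0 of 5 in pericytes, 0 of 3 in SMC, 0 of 5 in endothelium, 0 of 4 in PDGFRahi FB and 0 of 7 in other FB. The shares of all genes called were 0% in pericytes, 0.867% in SMC, 0.0105% in endothelium, 1.48% in PDGFRahi FB and 0.138% in other FB. By edgeR 1 Notch gene in SMC and 2 in other FB had an unadjusted p under 0.05 and none had in the other classes, and DESeq2 called 0 in each class. In pericytes 3133 genes were tested, of which 148 had an unadjusted p under 0.05, 0 were called by edgeR and 17 by DESeq2. The log2 fold changes of colon over small intestine in pericytes were -0.12 ± 0.49 for Notch3, 0.27 ± 0.53 for Heyl, 0.22 ± 0.56 for Jag1, 0.03 ± 0.54 for Hes1 and -1.08 ± 0.56 for Notch1 (SE, adjusted p of 1.00 for each). The endothelial comparison had 1 small intestinal library. In SMC, Hes1 had a log2 fold change of -0.90 ± 0.51 (SE, adjusted p = 0.735). It became -1.87 when colon replicate 2 was left out, with colon replicate 1 as the only colonic library.

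Dll1, a ligand of the Delta family that is known for its role in the intestinal crypt, was the 1 other pathway gene that differed between the intestines. In PDGFRahi FB it had 4.78 and 6.87 CPM in the small intestine, from 5 and 8 UMIs, and 88.9 and 97.7 CPM in the colon, from 581 and 796 UMIs. Both colonic libraries were above both small intestinal libraries, with a log2 fold change of 4.13 ± 0.37 (SE, adjusted p = 0.0148). In other FB the levels were 28.7 and 28.0 CPM in the small intestine and 33.9 and 41.3 CPM in the colon (0.34 ± 0.23, SE, adjusted p = 0.817). The difference between the intestines was larger in PDGFRahi FB than in other FB by 3.77 ± 0.30 on the log2 scale (SE, adjusted p = 5.0e-10 for the class by intestine term). Left out in turn, either small intestinal replicate took the adjusted p of the PDGFRahi difference above the threshold, to 0.138 and 0.112, with log2 fold changes of 3.89 and 4.42. CD81+ FB had 17.8, 16.7, 12.3 and 11.4 CPM of Dll1, with both colonic values below both small intestinal values. Dll1 was low in the mural classes, with 3 UMIs in all pericytes (-3.78 ± 0.67 against fibroblasts, SE, adjusted p = 0.000192) and 5.27 to 15.6 CPM in SMC (-3.06 ± 0.37, SE, adjusted p = 1.2e-06).

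**Figure D5:**
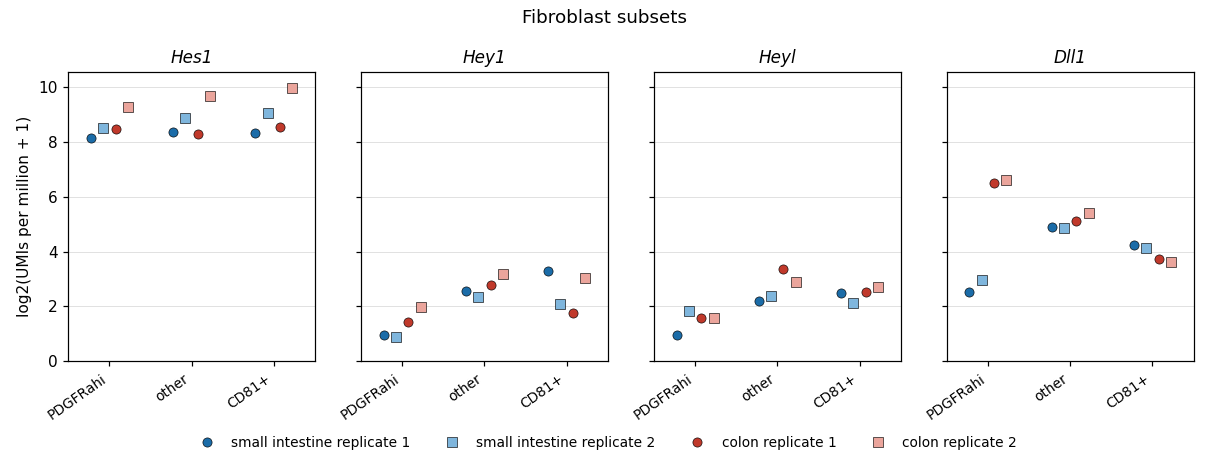
Level of Hes1, Hey1, Heyl and Dll1, as log2(CPM + 1), in PDGFRahi FB, other FB and the CD81+ FB within them, by library, with colours and shapes as in the plot of the 8 genes by class. Dll1 in PDGFRahi FB splits by intestine, at 4.78 and 6.87 CPM in the small intestine and 88.9 and 97.7 CPM in the colon, and Hey1 and Heyl are lower in PDGFRahi FB than in other FB in each library.

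Across the 19 sums of library and class, the genes outside the marker lists whose log2(CPM + 10) most resembled that of Notch3 were Fam150b (Pearson's r = 0.991), Rgs4 (0.991) and Lamc3 (0.988), and the gene most like Heyl was Notch3 (0.987). Dll4 was most like Mapk11 (0.981), Acer2 (0.979) and Rasa4 (0.972), Hey1 like Gpr4 (0.95), Ggta1 (0.946) and Il2rg (0.940), and Notch1 like Dapk2 (0.943), Smagp (0.939) and Nostrin (0.939). Jag1 was most like Tspan15 (0.932), Tmpo (0.907) and Tns1 (0.901), Hes1 like Thbs1 (0.910), Jak1 (0.815) and Trib1 (0.808), and Notch2 like Katnal1 (0.828). The sums of a library share its depth and chemistry, and those of the fibroblast sets share cells, so these values only describe likeness.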

How the data were processed

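Single cell RNA-seq libraries of sorted intestinal stromal cells were deposited as 4 gene-by-barcode matrices, 1 per library. Per the labels and the methods of the study, the authors aligned reads to mm10 and made these raw UMI counts with Cell Ranger (3.0.2 in the submitters' processing notes).

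Barcodes were kept as cells from 500 detected genes and 1000 UMIs upwards, with mitochondrial transcripts making up no more than 10%. Doublets were removed with Scrublet in Scanpy 1.11.5 at a fixed score of 0.2, because the automatic threshold marked 1 of 15263 cells in small intestine replicate 2. Cells with several markers of plasma cells, immune cells, glia, epithelium, mesothelium or interstitial cells of Cajal formed no class. Interstitial cell markers remained at 249 to 374 CPM in pericytes, from 2 of the 3 genes, with Kit at 0 in all 4 libraries. Marker counts of a cell set the gates and were seen before the gates were fixed.

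Counts were summed per library and class (at least 10 cells) and tested with edgeR 4.0.16 (TMM, filterByExpr, robust quasi-likelihood F-test, Benjamini-Hochberg over all genes tested). Each SE was derived from the log2 fold change and its unadjusted p, so it is no separate measure of spread. Pericytes, SMC, endothelium and fibroblasts shared 1 fit with library as a block. PDGFRahi FB and other FB are part of the fibroblast class and were fitted apart. The intestines were compared with 2 libraries each, except endothelium with 1 small intestinal library, and without a block. The p-values thus measure the spread between libraries of pooled mice, which includes the difference of replicates 1 and 2 in depth and cell number. Alternatives were DESeq2 1.42.0, its size factors, no low-count filter, 1000 genes per cell, doublets kept, 1 more marker per class, other blocks and each library left out. The method was tested on simulated data with changes of 2 and 3 on the log2 scale. For pericytes against fibroblasts 71.7% and 88.4% of these changes were called. Between the intestines the shares were 20.7% and 67.5% in pericytes and 50.5% and 89.4% in PDGFRahi FB. Of the calls, 2.52%, 9.88% and 6.34% were false in the same order of comparisons.

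All 8 genes are named. Of the other 39 pathway genes, those called between classes are named, at most 5 per comparison by size, and Rbpj, the Prox1 split and Dll1 between the intestines were added after values were seen. The genes and lists were chosen with earlier results of these data known. Intervals and floors cover counting error only. Sequences were read from RefSeq windows (GRCm38.p6), positions from GENCODE vM21.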

Additional observations from a re-analysis of the deposited data

Results flagged for a closer look

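The difference of Dll1 between colon and small intestine was not the same in the fibroblast sets. The class by intestine term was 3.77 on the log2 scale (adjusted p = 5.0e-10, edgeR), with Dll1 higher in PDGFRahi FB of both colonic libraries and a log2 fold change of 0.34 in other FB. Of 12703 genes tested for such a term, 1365 had an adjusted p under 0.05 in either direction. A term of this kind was thus not particular to Dll1, and how many of these genes shared its pattern was not counted.

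Cells that met both the pericyte and the SMC gate entered no comparison, and they held Notch transcripts. There were 18 in small intestine replicate 1 and 51 in colon replicate 1, while the replicate 2 libraries had 3 and 4. Their Notch3 level was 619 CPM in small intestine replicate 1 and 384 CPM in colon replicate 1, below the pericytes of the same libraries. Heyl stood at 110 and 137 CPM, below the pericytes of the same libraries, and Jag1 at 82.6 and 98.6 CPM, above them. Nrarp had 323 and 247 CPM in the cells that met both gates. The median cell of this kind had 8444.5 and 9469 UMIs against 4586.5 and 5988 in pericytes, and the part of doublets in these levels was not tested.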

How the results depend on the processing

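Of 865 values of the 8 genes under alternative settings, 805 kept their direction and their side of the threshold, 14 were no longer called, 11 became called and 35 changed sign. No value that changed sign was called under either setting. Counts of called genes moved by more than 1.5 times in 5 cases. With the replicate 1 libraries alone, SMC against fibroblasts called 1 and PDGFRahi FB against other FB called 1. With the replicate 2 libraries alone, PDGFRahi FB against other FB called 0. The count for endothelium against fibroblasts moved there too, with endothelium from colon replicate 2 alone. Without colon replicate 2, which left colon replicate 1 as the only colonic library, the count for colon against small intestine in SMC also moved. Leaving out each library gave 5 to 6 called genes for pericytes against fibroblasts, 2 to 3 for SMC and 4 for endothelium against fibroblasts, 3 to 4 for pericytes against endothelium, 5 to 7 for pericytes against SMC and 2 to 3 for PDGFRahi FB. The cause of these changes was not tested, though fewer libraries entered each fit.

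The sign changes were as follows, on the log2 scale. For Notch2 in SMC against fibroblasts the value was -0.15 without the low-count filter, -0.023 by DESeq2 and -0.069 in the replicate 1 libraries, and for Dll4 there 0.28 by DESeq2. In endothelium against fibroblasts it was 0.17 for Heyl in the replicate 1 libraries and -0.26 for Hes1 in the replicate 2 libraries. In pericytes against endothelium Hes1 was at -0.019 without the filter, -0.057 from 1000 genes per cell, -0.0092 with 1 more marker and -0.030 with a replicate block, and Notch2 at 0.075 without the library block. Jag1 in PDGFRahi FB was at -0.32 in the replicate 1 libraries, and with 1 more marker colon against small intestine in pericytes gave -0.00061 for Jag1 and -0.011 for Hes1. With each library left out, the ranges were -0.019 to 0.51 for Hes1 in pericytes, -0.20 to 0.092 for Notch2 in SMC, and -0.13 to 0.52 for Hes1 and -1.19 to 0.10 for Heyl in endothelium, all against fibroblasts, and -0.35 to 0.18 for Notch2 and -0.086 to 0.34 for Hes1 in pericytes against endothelium. Jag1 in PDGFRahi FB ranged from -0.21 to 0.37. Between the intestines the ranges were -0.47 to 0.59 for Notch3, -0.42 to 0.85 for Hes1 and -0.26 to 0.66 for Heyl in pericytes, -0.14 to 1.09 for Notch2, -1.02 to 0.92 for Jag1 and -1.81 to 0.34 for Notch1 in PDGFRahi FB, and -0.097 to 0.086 for Notch3 and -0.48 to 1.03 for Hes1 in other FB.

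Replicate numbers were shared between the intestines. The deviations of same-numbered libraries correlated with r = 0.788, a single value for 2 pairs. The labels do not say what the number marks, and same-numbered libraries were also alike in depth, cell number and shared barcodes, so pairing was not established. With a replicate block, 0 Notch genes were called between the intestines in pericytes, SMC, PDGFRahi FB and other FB, and the class comparisons called the same numbers, 6, 3, 4, 3, 6 and 2. No paired analysis was possible for endothelium because 1 small intestinal library held the class, and leaving out that library or either colonic library gave no value.

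Mean shares of cells with a UMI over libraries, thinned to 1000 UMIs per cell, rose at 2000 UMIs per cell: to 56.1% from 38.8% for Notch3 and to 35.1% from 20.0% for Heyl in pericytes, to 27.6% from 20.6% for Notch1, to 29.1% from 19.5% for Dll4 and to 11.5% from 7.58% for Hey1 in endothelium, and to 45.4% from 30.1% for Hes1 in fibroblasts. With doublets kept, Hey1 in endothelium was 4.66%. Depth limits what can be said of Notch2, Dll4 and Hey1 in pericytes, which rest on 5, 27 and 39 UMIs.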
